A study of Mus musculus with 15 samples.

Results

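Spink4, Gabrg3, Aldh1a7 and Ggt5 are 4 genes of the mouse adrenal gland that were low before dexamethasone, high when it was stopped and lower again 3 days later. They were selected on their log2 difference between day 3 and withdrawal, which was among the largest falls of all genes, so that fall is described below and not tested. Each gene was read by 1 probe set with a single gene symbol, which makes 4 of the 21439 genes measured and 4 of 32736 probe sets. RNA came from whole adrenals of wild-type male C57BL/6J mice labelled as 6 weeks old, on 15 arrays titled as biological replicates. Controls (4 arrays) were collected before any dexamethasone, and all other mice had received the drug in their drinking water for 14 days. Withdrawal glands (3 arrays) were taken when the drug was stopped, and day 3 and day 7 glands (4 arrays each) after 3 and 7 days without it. The label gives the same age to every group although collection spans the treatment, so the age at collection of each group is not known here. Whole glands hold cortex, medulla, capsule, vessels and resident immune cells, and in such RNA fewer cells of a type and less RNA per cell cannot be told apart.

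Dexamethasone is a synthetic glucocorticoid that shuts down pituitary ACTH, the hormone that maintains the glucocorticoid output and the size of the inner adrenal cortex, and the cortex regrows once the drug is stopped. The 4 genes belong to unrelated families. Spink4 encodes a small secreted Kazal-type inhibitor of serine proteases, best known from intestinal goblet cells, and Gabrg3 encodes the gamma-3 subunit of the GABA-A receptor, a chloride channel opened by the transmitter GABA. Aldh1a7 encodes a cytosolic aldehyde dehydrogenase closely related to Aldh1a1, which oxidises retinaldehyde to retinoic acid, and Ggt5 encodes a gamma-glutamyltransferase that converts leukotriene C4 to leukotriene D4 and also cleaves glutathione.

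Aldh1a7 and Aldh1a1 lie next to each other on chromosome 19, and their promoters are shown because these neighbours were high together in the withdrawal arrays. The windows run from 250 bases before to 50 bases after the annotated start, from RefSeq on GRCm38.p6, at chr19:20727507-20727806 (minus strand) for Aldh1a7 and chr19:20601718-20602017 (plus strand) for Aldh1a1. Capitals mark the longest run of identical bases, 65 in length.
Aldh1a7: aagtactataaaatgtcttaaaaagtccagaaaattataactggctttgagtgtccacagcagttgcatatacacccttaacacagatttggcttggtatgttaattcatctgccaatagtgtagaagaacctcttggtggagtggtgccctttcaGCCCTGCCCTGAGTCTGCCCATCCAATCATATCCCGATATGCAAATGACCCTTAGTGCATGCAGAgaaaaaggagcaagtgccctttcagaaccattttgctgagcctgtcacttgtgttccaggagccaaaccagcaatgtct
Aldh1a1: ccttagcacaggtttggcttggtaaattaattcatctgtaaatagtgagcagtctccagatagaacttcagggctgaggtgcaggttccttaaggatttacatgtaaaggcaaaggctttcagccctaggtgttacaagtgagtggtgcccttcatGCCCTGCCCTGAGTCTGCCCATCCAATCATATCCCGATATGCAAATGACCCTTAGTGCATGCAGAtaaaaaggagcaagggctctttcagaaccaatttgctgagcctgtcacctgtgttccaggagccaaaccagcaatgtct
The 2 windows were identical at 224 of 282 aligned bases, or 79.4%. The second annotated start of Aldh1a1, at chr19:20492333-20492632 (plus strand), gave 65.3% identity to the Aldh1a7 window with a longest shared run of 8 bases. The Gabrg3 window, at chr7:57387166-57387465 (minus strand), gave 60.8% with a longest run of 7. No window was listed for Spink4 or Ggt5.

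Motifs were searched on both strands of the windows of Aldh1a7 and Gabrg3. They were the glucocorticoid receptor half-site AGAACA, the NR5A1 site AAGGTCA, the cAMP response element half-site TGACG and the TATA motif TATAAA. The single match was TATAAA in the Aldh1a7 window, 244 bases before the start. Among all 32851 windows of that length, 19.0% held AGAACA, 4.72% held AAGGTCA, 20.8% held TGACG and 13.6% held TATAAA. These letters are absent from the Gabrg3 window, which says nothing of the factors that bind there.

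The deposited levels are log2 values in which a step of 1 is a doubling, and levels of different probe sets are not set against each other. Array medians lay between 1.55 and 1.64, and levels around or under them are called the floor. Arrays of one group correlated with each other at 0.987 to 0.991 on average, and 0 pairs were identical. The labelled tissue was borne out by its markers, since 0 of 11 genes of the steroidogenic cortex and 0 of 13 genes of the medulla were at the floor. Liver markers stood out in some arrays, with a mean level of the 6 listed genes from 3.07 to 5.34 in controls, 3.70 to 3.84 at withdrawal, 3.31 to 6.91 on day 3 and 3.74 to 5.52 on day 7. Neutrophil markers averaged 3.97 in day 3 replicate 2 and 1.66 to 2.05 in the other day 3 arrays.

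Spink4 (probe set 17412793) was at or near the floor outside the withdrawal group. Its log2 level was 5.55, 3.93 and 2.57 in withdrawal replicates 1, 2 and 3. In the 4 control arrays it was 1.13, 1.16, 1.07 and 1.26. On day 3 it was 0.88, 0.96, 1.19 and 1.80, and on day 7 it was 1.70, 1.05, 1.36 and 0.87. Every withdrawal array stood above all 12 other arrays, and the control, day 3 and day 7 groups overlapped there. The 3 withdrawal arrays spanned 2.98 log2 units, more than the difference between the group means.

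Spink4 averaged 4.02 ± 1.49 (SD, n = 3) at withdrawal against 1.15 ± 0.08 (SD, n = 4) in controls, a measured log2 difference of 2.86 ± 0.47 (SE). On day 3 it averaged 1.21 ± 0.42 (SD, n = 4), which put it 2.81 ± 0.47 below withdrawal as measured. Each SE here and below comes from the limma fit, which shares 1 estimate of spread over all groups. For Spink4 it therefore understates the wide spread of the withdrawal arrays. Controls and day 3 were at the floor, so each array there was also set to its own median where that was higher, which made Spink4 at least 5.29-fold higher at withdrawal than in controls and at least 5.15-fold lower on day 3 than at withdrawal. The size of that step depended on which withdrawal array was left out. Without replicate 1 the day 3 minus withdrawal difference was -2.04, and without replicate 3 it was -3.53.

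Gabrg3 (probe set 17491463) was well above the floor in every array. It read 6.65, 5.78 and 6.18 in withdrawal replicates 1, 2 and 3, and 3.49, 3.46, 3.72 and 3.49 in controls. On day 3 its levels were 4.34, 5.17, 3.84 and 3.62, and on day 7 they were 4.70, 4.03, 5.14 and 4.53. The withdrawal arrays stood clear of every other array, and the lowest of them was above the highest day 3 array. Among the recovering glands, day 3 replicate 2 and day 7 replicate 3 were the highest of their groups.

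Gabrg3 averaged 6.20 ± 0.44 (SD, n = 3) at withdrawal against 3.54 ± 0.12 (SD, n = 4) in controls, a difference of 2.67 ± 0.32 (SE), or 6.35-fold. The day 3 mean of 4.24 ± 0.69 (SD, n = 4) lay 1.96 ± 0.32 below withdrawal, or 3.89-fold. The withdrawal arrays spanned 0.87, well inside either difference.

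Aldh1a7 (probe set 17363429) read 7.72, 7.47 and 5.97 in withdrawal replicates 1, 2 and 3. In controls it read 4.42, 6.32, 4.33 and 4.39, so that control replicate 2 stood far above the other controls and exceeded withdrawal replicate 3. On day 3 its levels were 4.65, 5.74, 4.80 and 5.05, and on day 7 they were 6.53, 6.05, 6.46 and 5.61. The day 3 arrays were all below the withdrawal arrays, while the day 7 arrays overlapped withdrawal replicate 3.

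Aldh1a7 averaged 7.05 ± 0.95 (SD, n = 3) at withdrawal against 4.87 ± 0.97 (SD, n = 4) in controls, a difference of 2.19 ± 0.48 (SE), or 4.55-fold. Without control replicate 2 the difference was 2.67. The day 3 mean of 5.06 ± 0.48 (SD, n = 4) lay 1.99 ± 0.48 below withdrawal, or 3.98-fold. The withdrawal arrays spanned 1.75, and the gap between replicate 3 and the highest day 3 array was narrow.

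Ggt5 (probe set 17234403) read 6.84, 6.29 and 6.13 in withdrawal replicates 1, 2 and 3, and 4.66, 4.39, 4.38 and 4.64 in controls. On day 3 it read 4.15, 4.91, 4.71 and 4.85, and on day 7 it read 4.68, 4.76, 5.23 and 5.11. The withdrawal arrays were again above all others, and here the spread within every group was small beside the distance between withdrawal and the rest. Ggt5 averaged 6.42 ± 0.38 (SD, n = 3) at withdrawal against 4.52 ± 0.15 (SD, n = 4) in controls, a difference of 1.90 ± 0.20 (SE), or 3.74-fold. The day 3 mean of 4.65 ± 0.35 (SD, n = 4) lay 1.77 ± 0.20 below withdrawal, or 3.40-fold. The range of the withdrawal arrays was 0.72.

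**Figure D1:**
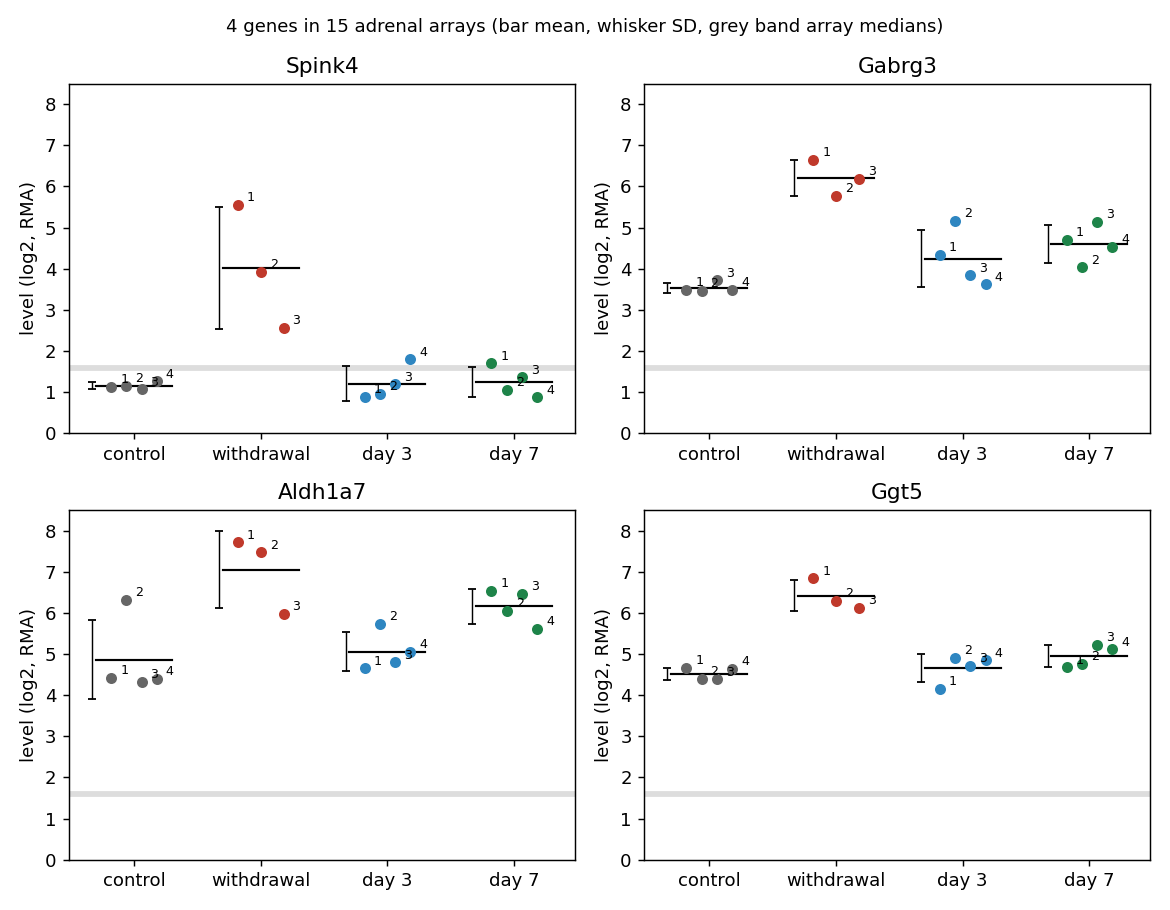
Log2 level of Spink4, Gabrg3, Aldh1a7 and Ggt5 in each of 15 arrays (points, numbered by replicate), by group on the horizontal axis, with the group mean as a bar, its SD as a whisker and the range of array medians as a grey band. The withdrawal arrays lie above all others for Spink4, Gabrg3 and Ggt5, and Spink4 spreads from 2.57 to 5.55 within that group.

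Withdrawal replicate 1 was the highest of its group for all 4 genes. Replicate 3 was the lowest for Spink4, Aldh1a7 and Ggt5, and replicate 2 was the lowest for Gabrg3. The 3 arrays were thus ordered alike for Spink4, Aldh1a7 and Ggt5, with a spread of 2.98 for Spink4 and 0.72 for Ggt5. Replicates of one group have no order of their own, and what sets these glands apart was not tested.

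Over all genes, the fall from withdrawal to day 3 ranked Spink4 first, Aldh1a7 4th, Gabrg3 5th and Ggt5 8th. The Spink4 fall ends at the floor, and with day 3 set to the floor as above it was at least 2.37 on the log2 scale and still ranked first. Between them stood Kcnk5, a background potassium channel gene, with a difference of -2.17, and Cd5l, which encodes a protein secreted by macrophages, with -2.08. Hsd3b6, a steroid dehydrogenase of the zona glomerulosa, had -1.81, and Spic, a transcription factor gene of red pulp macrophages, had -1.79. Just outside the lowest of the 4 stood Tiparp, which encodes an ADP-ribosyltransferase, with -1.64 against the -1.77 of Ggt5. When each array was left out in turn, the rank ran from 1 to 3 for Spink4, 2 to 10 for Gabrg3, 2 to 11 for Aldh1a7 and 6 to 16 for Ggt5.

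The day 3 and withdrawal groups did not overlap for 4 of the 4 genes, against 5.73% of all genes lower on day 3 without overlap. The choice of the genes favours that count. Withdrawal and control arrays did not overlap for 3 of the 4, with Aldh1a7 the exception, against 8.15% of all genes higher without overlap. That comparison shares the withdrawal arrays with the selection, and so does day 7 against withdrawal. The median of the 4 differences was 2.43 for withdrawal minus control and -1.98 for day 3 minus withdrawal, against -0.01 over all genes in both.

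By day 3, Spink4, Aldh1a7 and Ggt5 were within 1 SE of their control means. Day 3 minus control was 0.05 ± 0.43 (SE) for Spink4, 0.19 ± 0.45 for Aldh1a7 and 0.14 ± 0.19 for Ggt5. For Aldh1a7 this rested on control replicate 2, without which the difference was 0.68, more than that SE. Spink4 was at or near the floor in both groups, so its closeness says little. Gabrg3 differed by 0.71 ± 0.30, and day 3 replicate 4 at 3.62 lay inside the control range. The groups overlapped for all 4 genes, and 5.2% of all genes had no overlap in either direction.

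Day 7 against day 3 shares the day 3 arrays with the selection and is described only. Day 7 minus day 3 was 1.10 ± 0.45 (SE) for Aldh1a7, with 3 of the 4 day 7 arrays above the highest day 3 array. It was 0.35 ± 0.30 for Gabrg3, 0.29 ± 0.19 for Ggt5 and 0.04 ± 0.43 for Spink4. The groups overlapped for all 4 genes, no difference between genes was tested, and 3.56% of all genes had no overlap in either direction.

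Day 7 levels stayed under withdrawal by a measured 2.77 for Spink4 (at least 5.28-fold against the floor), 1.61 for Gabrg3 and 1.47 for Ggt5 on the log2 scale, with no overlap of arrays. For Aldh1a7 the difference was -0.89, or 1.86-fold, and the groups overlapped. Of all genes, 5.89% were lower on day 7 than at withdrawal without overlap, against 3 of the 4 here. The comparison again shares the withdrawal arrays with the selection.

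Day 7 against control is the comparison whose group means used none of the arrays behind the selection, and it was tested. Its limma SE and p-values are not free of those arrays. All groups were fitted together, so the spread within the withdrawal and day 3 groups entered them. The exact permutation test given below used the day 7 and control arrays alone. Adjusted over all genes with limma, 0 of the 4 genes differed, where 0.014% of all genes were higher and 0.00466% lower. At an unadjusted limma p under 0.05, 3 of the 4 differed, against 5.95% of all genes in either direction. Day 7 arrays stood wholly above controls for 2 of the 4, Gabrg3 and Ggt5, against 1.75% of all genes higher without overlap. The median of the 4 differences was 0.75, against 0.01 over all genes.

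Gabrg3 averaged 4.60 ± 0.46 on day 7 and 3.54 ± 0.12 in controls (SD, n = 4 each). All 4 day 7 arrays were above the highest control. The difference was 1.06 ± 0.30 (SE), or 2.09-fold, with limma p = 0.00275, adjusted p = 0.588 and a two-sided exact permutation p of 0.0286, the smallest that 4 against 4 arrays allow. Ggt5 averaged 4.94 ± 0.27 on day 7 and 4.52 ± 0.15 in controls (SD, n = 4 each), a difference of 0.43 ± 0.19 (SE), or 1.35-fold. All 4 day 7 arrays were above the highest control here too, with limma p = 0.0374, adjusted p = 0.813 and an exact permutation p of 0.0286.

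Aldh1a7 averaged 6.16 ± 0.42 on day 7 and 4.87 ± 0.97 in controls (SD, n = 4 each). The difference was 1.29 ± 0.45 (SE), or 2.45-fold, with limma p = 0.0115, adjusted p = 0.762 and an exact permutation p of 0.0857. All 4 day 7 arrays were above the control mean, but 2 of the 4 were below control replicate 2. Without that control the difference was 1.78, with limma adjusted p = 0.171. Spink4 averaged 1.24 ± 0.36 on day 7 and 1.15 ± 0.08 in controls (SD, n = 4 each), and its difference of 0.09 ± 0.43 (SE) had limma adjusted p = 0.991 and an exact permutation p of 0.714.

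Aldh1a1, the neighbour of Aldh1a7, was high in the same withdrawal arrays and likewise lower on day 3 and higher again on day 7. It read 9.66, 9.44 and 8.18 in withdrawal replicates 1, 2 and 3, and 6.73, 7.28, 6.97 and 7.04 in controls. On day 3 it read 7.70, 8.45, 6.89 and 7.12, and on day 7 it read 9.01, 8.93, 9.63 and 8.62. Its day 7 arrays lay within the range of its withdrawal arrays, and the day 7 mean of Aldh1a7 lay between its withdrawal and control means. Whether the day 7 minus withdrawal difference of the pair is unequal was not tested.

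Aldh1a1 was 2.08 ± 0.37 (SE) higher at withdrawal than in controls, or 4.24-fold, with limma adjusted p = 0.00525. On day 3 it was 1.55 ± 0.37 lower than at withdrawal, with adjusted p = 0.0425, and the groups overlapped. That call was lost in 5 of 7 fits that left out 1 array, with adjusted p up to 0.173 at a difference of -1.38 without withdrawal replicate 2. Day 7 minus withdrawal was -0.04 ± 0.37 with adjusted p = 0.981. Day 7 minus control was 2.04 ± 0.35, or 4.12-fold, with all day 7 arrays above all controls, limma adjusted p = 0.127 and an exact permutation p of 0.0286. The coding sequences of the pair are closely related, and whether some probes read both RNAs was not tested.

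**Figure D2:**
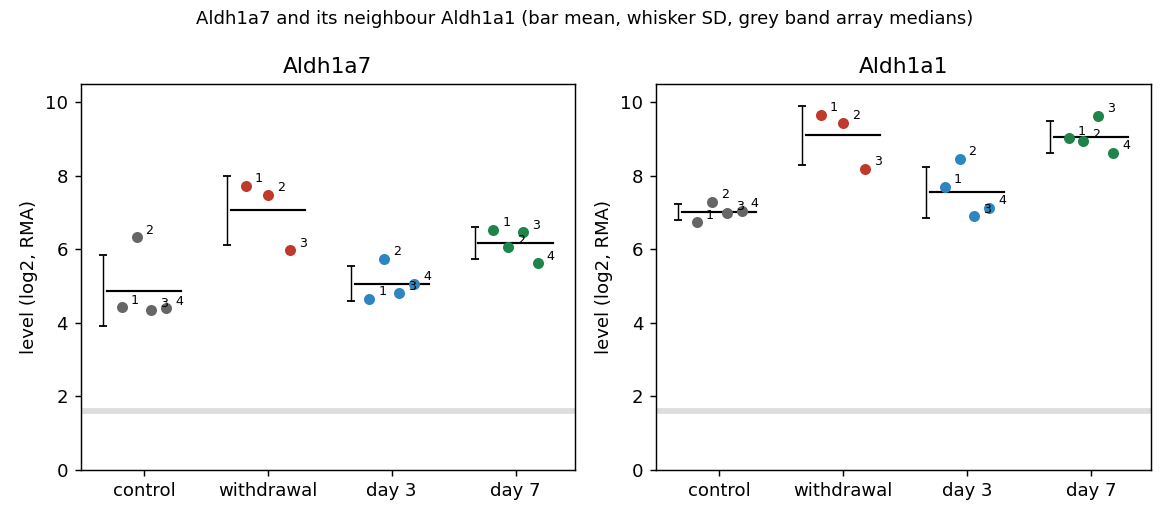
Log2 level of Aldh1a7 and its neighbour Aldh1a1 in each of 15 arrays (points numbered by replicate), by group, with mean, SD whisker and the range of array medians in grey. Day 7 arrays of Aldh1a1 (8.62 to 9.63) reach its withdrawal arrays (8.18 to 9.66), while day 7 arrays of Aldh1a7 (5.61 to 6.53) lie under withdrawal replicates 1 and 2 of that gene.

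The nearest protein-coding genes on each side were looked up in RefSeq order, 3 a side, which gave 24 neighbours of which 20 were measured. Spink4 on chromosome 4 had 0 of 5 measured neighbours called in withdrawal against control or day 3 against withdrawal. Over all genes, 2.49% were called higher and 1.81% lower in the first comparison, and 1.37% and 0.886% in the second. Gabrg3 on chromosome 7 had 0 of 5 too, including Gabra5, the alpha-5 subunit gene beside it. Gabra5 was at the floor, so a fall could not be seen there. Aldh1a7 had 2 of 5 called in withdrawal against control, Aldh1a1 and Anxa1, and 1 of 5, Aldh1a1, in day 3 against withdrawal. Anxa1, which encodes annexin A1, was 1.22 ± 0.32 (SE) higher at withdrawal than in controls, with limma adjusted p = 0.0465. That call was lost in 6 of 7 fits that left out 1 array, with adjusted p up to 0.208 without withdrawal replicate 2. Ggt5 on chromosome 10 had 0 of 5 called in withdrawal against control and 1 of 5 in day 3 against withdrawal. That gene, Cabin1, a calcineurin inhibitor gene, was 0.43 ± 0.10 (SE) lower on day 3 than at withdrawal, with limma adjusted p = 0.0362, and 0.139 without withdrawal replicate 3.

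The families of Spink4 and Gabrg3 gave no other gene that passed. Of the 10 other Kazal inhibitor (SPINK) genes measured, 0 passed in either direction in withdrawal against control, where 2.49% of all genes were called higher and 1.81% lower. In day 3 against withdrawal 0 passed too, where 1.37% were called higher and 0.886% lower. For 9 of the 10 the level was at the floor in every array, Spink1, the pancreatic trypsin inhibitor, among them, so a fall could not be seen there. Spink8, named after its values were seen as the other one, averaged 3.81, 4.51, 4.95 and 3.84 in control, withdrawal, day 3 and day 7 arrays. Its difference was 0.70 ± 0.41 (SE) for withdrawal minus control and 0.44 ± 0.41 for day 3 minus withdrawal, with limma adjusted p of 0.434 and 0.72. Their differences lay between -0.13 and 0.70 for withdrawal minus control, with a median of 0.07.

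Of 15 other GABA-A receptor subunit genes measured out of 18 listed, 0 passed in either comparison and 14 had a mean at the floor. Over all genes, 2.49% were called higher and 1.81% lower at withdrawal, and 1.37% higher and 0.886% lower on day 3 against withdrawal. Gabra5 averaged 1.25, 1.18, 1.29 and 1.30 in control, withdrawal, day 3 and day 7 arrays. The exception was Gabra3, the alpha-3 subunit gene, named after its values were seen, with means of 5.63 at withdrawal and 5.78 in controls and a difference of -0.15 ± 0.51 (SE). The differences of the 15 lay between -0.26 and 0.18 for withdrawal minus control and between -0.32 and 0.25 for day 3 minus withdrawal, with medians of -0.06 and 0.02. Of 14 measured genes of GABA synthesis, transport and receptor anchoring, 0 passed in either comparison, with medians of -0.05 and 0.04. Gabrg3 was thus measured in glands where the other subunits of the channel were mostly at the floor.

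Aldehyde dehydrogenases other than Aldh1a7 moved in both directions. Of 16 measured, 1 was higher (Aldh1a1) and 2 lower at withdrawal than in controls. Over all genes, 2.49% were called higher and 1.81% lower there, and 1.37% higher and 0.886% lower on day 3 against withdrawal. Aldh1b1, a mitochondrial family member, averaged 3.27 at withdrawal and 4.35 in controls, a difference of -1.08 ± 0.11 (SE) with limma adjusted p = 9.18e-05. Aldh4a1, which acts in proline breakdown, was 0.70 ± 0.16 lower with adjusted p = 0.0199, and 0.0928 without withdrawal replicate 1. On day 3 Aldh1b1 was 0.96 ± 0.11 higher than at withdrawal (adjusted p = 0.000494) and Aldh3b1 0.98 ± 0.22 higher (adjusted p = 0.0334, and 0.141 without withdrawal replicate 2), so 2 rose and 1, Aldh1a1, fell. On day 7 Aldh1b1 was 1.27 ± 0.11 above withdrawal (adjusted p = 5.99e-05), the single aldehyde dehydrogenase called, where 0.98% of all genes were called higher and 0.905% lower. The medians of the list were -0.03, 0.08 and 0.07 in these 3 comparisons, and of 20 measured genes of retinoid metabolism and receptors 0 passed in any of them.

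Around Ggt5, single genes of glutathione and leukotriene turnover were called. Of 11 measured genes of gamma-glutamyl transfer and glutathione breakdown, 2 rose at withdrawal against control and 0 fell. Over all genes, 2.49% were called higher and 1.81% lower in that comparison. Anpep, an aminopeptidase that splits cysteinylglycine, averaged 7.68 at withdrawal and 5.65 in controls, a difference of 2.03 ± 0.25 (SE) with limma adjusted p = 0.00033. Its level on day 3 was 6.78, and day 3 minus withdrawal was -0.90 ± 0.25 with adjusted p = 0.0852. Ggct, a gamma-glutamylcyclotransferase, was 0.53 ± 0.14 higher at withdrawal with adjusted p = 0.0492, a call lost in 6 of 7 fits that left out 1 array, with adjusted p up to 0.191 without withdrawal replicate 1. In day 3 and in day 7 against withdrawal 0 of the 11 passed, and the list's medians were 0.19, -0.07 and -0.15. Of all genes, 1.37% were called higher and 0.886% lower on day 3, and 0.98% higher and 0.905% lower on day 7. The near relative Ggt1 was not analysed here.

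Of 18 measured genes of glutathione synthesis and use, 1 rose and 1 fell at withdrawal against control. Over all genes, 2.49% were called higher and 1.81% lower in that comparison. Gstt1, a glutathione transferase, averaged 7.12 at withdrawal and 6.16 in controls, a difference of 0.96 ± 0.12 (SE) with limma adjusted p = 0.000403. It was 0.83 ± 0.12 lower on day 3 than at withdrawal (adjusted p = 0.00264) and 0.70 ± 0.12 lower on day 7 (adjusted p = 0.00936, and 0.07 with the withdrawal and day 7 arrays fitted alone), the same direction as Ggt5. Mgst2, a microsomal transferase that can make leukotriene C4, ran the other way, at 5.94 at withdrawal and 7.35 in controls, a difference of -1.40 ± 0.25 with adjusted p = 0.00571. It was 1.23 ± 0.25 higher on day 7 than at withdrawal (adjusted p = 0.0222, and 0.0888 without withdrawal replicate 3). Gss, the glutathione synthetase gene, was 0.77 ± 0.13 higher on day 3 than at withdrawal (adjusted p = 0.00535).

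Of 8 measured genes of leukotriene synthesis and receptors, 2 rose and 1 fell at withdrawal against control. Over all genes, 2.49% were called higher and 1.81% lower in that comparison. Alox5ap, which presents arachidonate to 5-lipoxygenase, was 0.85 ± 0.18 (SE) higher (limma adjusted p = 0.0169, and 0.0911 without withdrawal replicate 2). It was 0.85 ± 0.18 lower on day 3 than at withdrawal (adjusted p = 0.0255, and 0.124 without that replicate) and 0.88 ± 0.18 lower on day 7 (adjusted p = 0.0245, and 0.118 without it). Abcc1, an exporter of leukotriene C4, was 0.46 ± 0.11 higher at withdrawal (adjusted p = 0.0277, and 0.137 without withdrawal replicate 2). Cysltr2, a receptor of cysteinyl leukotrienes, averaged 1.40 at withdrawal and 1.88 in controls, near the floor, with adjusted p = 0.0458 and 0.158 without withdrawal replicate 3. In day 7 against control 0 genes of these 8 family and pathway lists passed, where 0.014% of all genes were called higher and 0.00466% lower. Calls were that rare over all genes, and Aldh1a1 was 2.04 above controls there without passing.

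**Figure D3:**
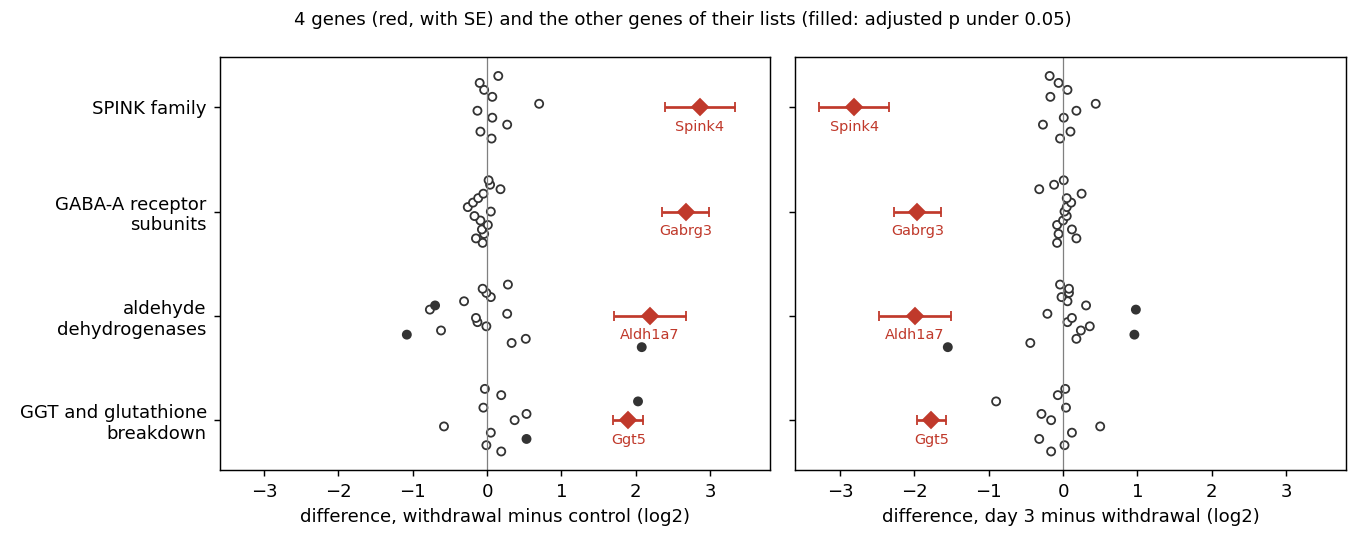
Log2 difference of withdrawal minus control (left) and day 3 minus withdrawal (right) for Spink4, Gabrg3, Aldh1a7 and Ggt5 (red diamonds, whiskers SE). Circles are the other measured genes of their lists, filled where the limma adjusted p was under 0.05. The Ggt5 list holds other enzymes of glutathione breakdown besides gamma-glutamyl transferases. Relatives of Spink4 and Gabrg3, nearly all at the floor, lie around 0 except Spink8 at 0.70 and 0.44. At withdrawal Aldh1a1 at 2.08 stands beside Aldh1a7, and the aminopeptidase gene Anpep at 2.03 beside Ggt5.

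Markers of other cells also differed between these groups. Over all genes, 2.49% were called higher and 1.81% lower at withdrawal than in controls. Against withdrawal, 1.37% were called higher and 0.886% lower on day 3, and 0.98% higher and 0.905% lower on day 7. Of 20 macrophage markers, 14 were higher and 0 lower at withdrawal than in controls, 7 were lower on day 3 and 9 lower on day 7 than at withdrawal. Withdrawal minus control ran from -0.38 to 7.63 among these markers, with a median of 0.97, so their mean leans on the largest risers. Their mean level was 6.37, 6.53 and 6.15 in withdrawal replicates 1, 2 and 3 and 4.56 to 4.77 in controls, with sums of 123.1 to 130.7 at withdrawal and 91.2 to 95.4 in controls. It was 5.57, 6.17, 5.53 and 5.85 on day 3 and 5.52, 4.92, 5.98 and 5.46 on day 7, with sums of 110.7 to 123.5 on day 3 and 98.5 to 119.6 on day 7. None of the 20 was at the floor. Day 3 replicate 2 and day 7 replicate 3 had the highest macrophage mean of their groups, and they also had the highest Gabrg3 of their groups, at 5.17 and 5.14, and the highest Ggt5, at 4.91 and 5.23. At withdrawal the highest macrophage mean was in replicate 2, which had the lowest Gabrg3 of that group, at 5.78, and a Ggt5 of 6.29 under the 6.84 of replicate 1. The share of macrophage RNA in the 4 genes' values was not tested.

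Over all genes, 2.49% rose and 1.81% fell at withdrawal against control, and 1.37% rose and 0.886% fell on day 3 against withdrawal. Zona glomerulosa markers rose for 5 of 12 genes and fell for 0 at withdrawal against control, and 4 fell on day 3 against withdrawal. Their mean was 7.73 to 7.99 at withdrawal and 7.26 to 7.31 in controls, then 7.12 to 7.30 on day 3 and 7.36 to 7.59 on day 7. Withdrawal replicate 1, the highest array of its group for all 4 genes, had the lowest zona glomerulosa mean of that group. Steroidogenic cortex genes went the opposite way, with 8 of 11 lower at withdrawal than in controls and 7 higher on day 3 than at withdrawal. Their mean was 8.63 to 8.74 at withdrawal and 9.43 to 9.50 in controls, then 9.36 to 9.47 on day 3 and 9.29 to 9.44 on day 7. Medulla genes rose for 3 of 13 at withdrawal and fell for 0 on day 3 against withdrawal. The part of these shifts in the 4 genes was not tested.

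Goblet and intestinal epithelium markers, listed because Spink4 is known from goblet cells, were at the floor by mean for 13 of 13 genes, 8 of them in every array. Their mean was 1.07 to 1.12 at withdrawal and 1.07 to 1.19 in controls, and 0 passed. The level of Spink4 in the withdrawal arrays thus came without these markers. The liver list was set beside Aldh1a7 array by array. Control replicate 2 had the lowest liver mean of controls (3.07) and the highest Aldh1a7 (6.32), and day 3 replicate 1 had the highest liver mean of day 3 (6.91) and the lowest Aldh1a7 (4.65). Day 7 replicate 1 had both the highest liver mean (5.52) and the highest Aldh1a7 (6.53) of its group, and so did withdrawal replicate 1, at 3.84 and 7.72. The liver means at withdrawal lay close together, at 3.70 to 3.84. The share of liver RNA in the Aldh1a7 values was not tested.

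**Figure D4:**
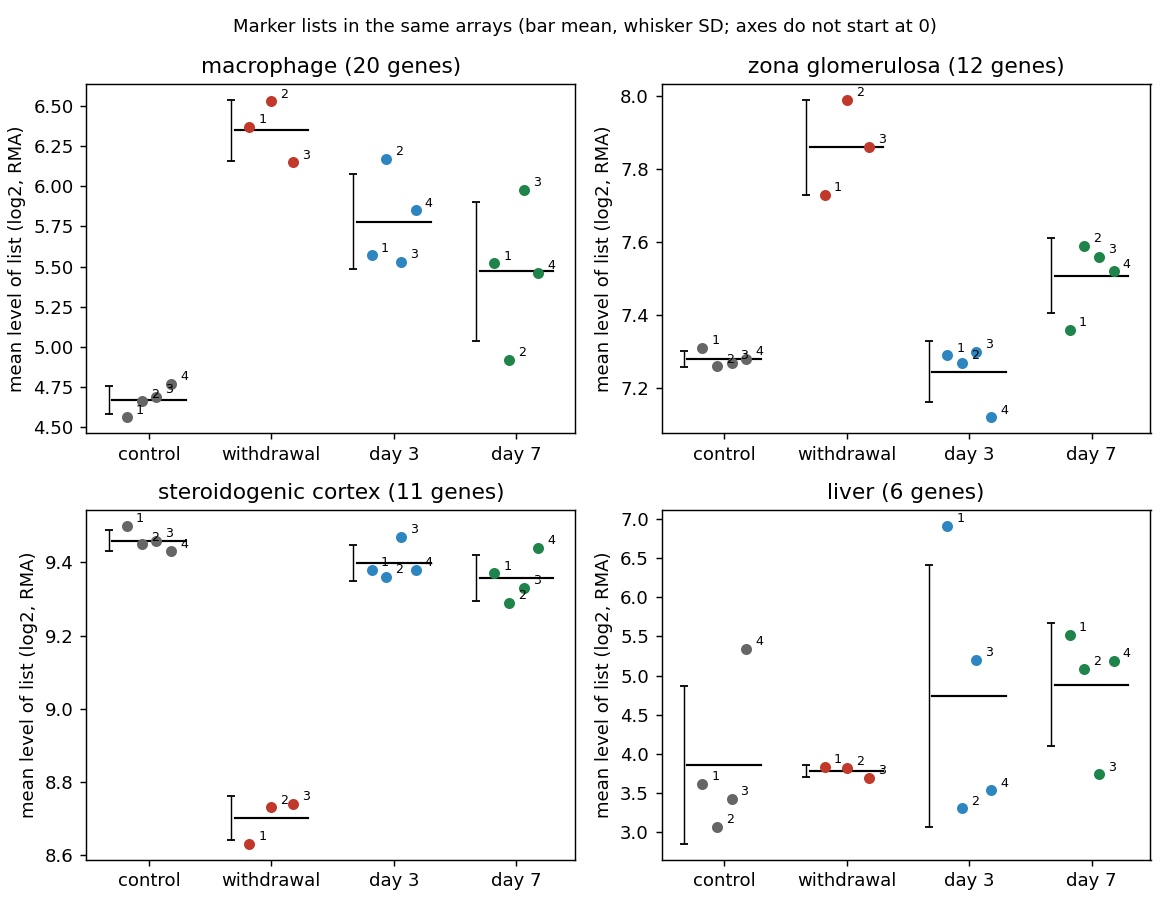
Mean log2 level per array of the macrophage (20), zona glomerulosa (12), steroidogenic cortex (11) and liver (6) marker lists, by group, with points numbered by replicate, mean bars and SD whiskers, on axes that do not start at 0. Macrophage means are highest at withdrawal (6.15 to 6.53), cortex means are lowest there (8.63 to 8.74), and liver means vary most on day 3 (3.31 to 6.91).

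The genes whose pattern was most like each of the 4 were found by subtracting each gene's mean over the 15 arrays and averaging the absolute difference between the pair of genes. Without any pairing, the mean absolute deviation of Spink4, Gabrg3, Aldh1a7 and Ggt5 themselves was 0.906, 0.849, 0.887 and 0.581. The levels below are a description, since likeness to genes chosen for their course fixes the course of the genes found.

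Gabrg3 was most like Ly9, a receptor of the SLAM family on lymphocytes and other leukocytes, with a mean absolute difference of 0.273. Ly9 averaged 2.15, 4.27, 2.98 and 2.99 in control, withdrawal, day 3 and day 7 arrays. Clec4n, a fungal pattern receptor of myeloid cells, followed at 0.374, then Mpeg1, a pore-forming protein gene of macrophages, at 0.381, and Lilrb4a, an inhibitory leukocyte receptor, and Plek, pleckstrin, at 0.386 each. All 5 are genes known from white blood cells, and Mpeg1 was also on the macrophage list.

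Aldh1a7 was most like its neighbour Aldh1a1, at 0.442. Il18bp, the secreted binding protein of interleukin-18, came next at 0.485 and averaged 4.91, 6.54, 5.22 and 5.54 in control, withdrawal, day 3 and day 7 arrays. Spic at 0.520, Tgfbi, an extracellular matrix protein gene, at 0.541 and Drd4, a dopamine receptor gene, at 0.551 completed its list. Tgfbi read 8.16 in control replicate 2, where Aldh1a7 also stood high, and 6.61 to 6.89 in the other controls. The closest gene to Aldh1a7 thus differed from it by more than the closest gene to Gabrg3 or Ggt5 did.

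Spink4 was most like Blnk, an adaptor of B cell receptor signalling, at 0.465, Avpr1a, the vasopressin V1a receptor gene, at 0.467, and Ggt5 at 0.469. The 5 measured B cell markers were all at the floor by mean. Avpr1a read 6.45, 5.02 and 4.27 in withdrawal replicates 1, 2 and 3, the same order of arrays as Spink4. Calcb, which encodes a calcitonin gene-related peptide, followed at 0.530, with 4.76 in withdrawal replicate 1 and 1.27 and 1.36 in replicates 2 and 3, so its place rests on 1 array. Myo1f, an unconventional myosin of leukocytes, came last of the 5 at 0.543.

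Ggt5 was most like Apobec1, the cytidine deaminase that edits apolipoprotein B RNA, at 0.246. Apobec1 averaged 4.89, 6.33, 5.18 and 5.03 in control, withdrawal, day 3 and day 7 arrays. Lgi3, a secreted leucine-rich repeat protein gene, at 0.255, Zfp872, a zinc finger gene, at 0.260, Ldhb, a lactate dehydrogenase subunit, at 0.269 and Nckap1l, a regulator of actin in blood cells, at 0.278 followed. Ggt5 was also the single gene of the 4 that stood on another's list, that of Spink4.

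**Figure D5:**
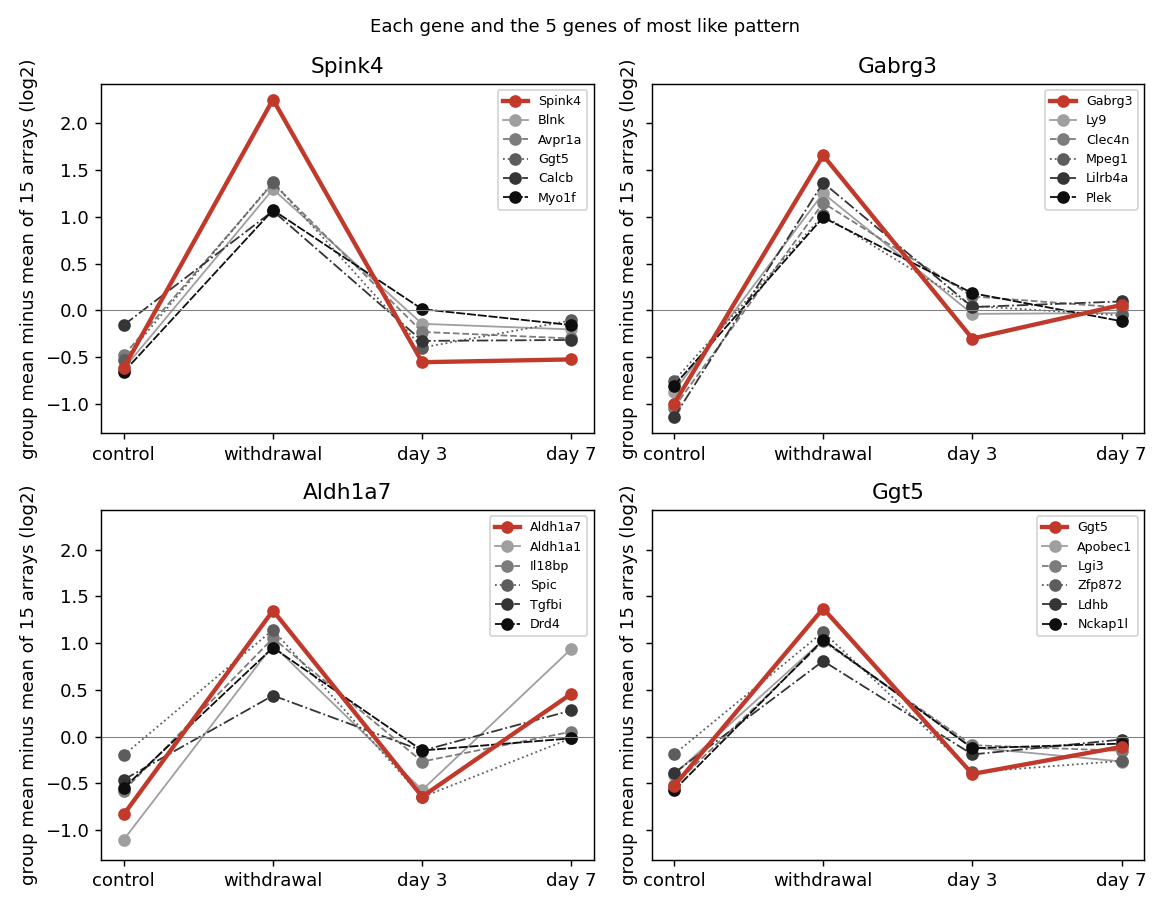
Group mean minus the mean of all 15 arrays (log2) for Spink4, Gabrg3, Aldh1a7 and Ggt5 (red) and, in grey and black, the 5 genes most like each, across control, withdrawal, day 3 and day 7. All lines are highest at withdrawal, and Aldh1a1 is nearly as high on day 7, with means of 9.09 at withdrawal and 9.05 on day 7.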

How the data were processed

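RNA from 15 mouse adrenal samples was hybridised to Affymetrix arrays (biotin label, WT Pico chemistry, as the labels' protocols state). The authors deposited log2 levels, for which the submitters' processing notes name RMA and the oligo package. Versions and any filter were not given in the sources used here.

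Probe sets with 1 gene symbol (22399 of 32736) were used, named through the platform annotation and RefSeq (22261 matched, 138 not). For 807 genes with several, the highest mean was kept, which left 21439 genes. limma 3.58.1 in R 4.3.3 (lmFit and eBayes, no trend, no robust) was fitted to all 15 arrays in 4 groups, with Benjamini-Hochberg adjustment over all genes and a threshold of 0.05. The 4 genes were tested in day 7 against control alone, with a two-sided exact permutation test over 70 splits beside it. The code was tested on simulated data. The number of arrays limits the precision. P-values measure the spread between samples titled biological replicates.

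The 4 genes and all gene lists were chosen with earlier results of these data known. Named were the 4 genes, fixed relatives, up to 4 passing genes of each family or pathway list by size, and 5 genes of most like pattern. Also named were the neighbours called and genes of the largest falls, the last chosen after their values were seen. Promoters were aligned with Biopython 1.88. Alternatives were median centring, quantile normalization, a filter on dim probe sets (above 3 in at least 3 arrays), trended and robust eBayes, a replicate block, fits of the groups compared alone, and leaving out each array. The stability of called list genes and neighbours was added after the data were seen.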

Additional observations from a re-analysis of the deposited data

Results flagged for a closer look

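Among 42 named genes, each group of 4 arrays was checked for a single array far from the other 3, and 8 of 126 groups had one, where chance gives about 1 in 20. For the chosen genes these were Gabrg3 in control replicate 3, at 3.72 with the other controls at 3.46 to 3.49, and Aldh1a7 in control replicate 2, at 6.32 with the others at 4.33 to 4.42. Without control replicate 2, Aldh1a7 differed by 2.67 for withdrawal minus control and 1.78 for day 7 minus control. Gabra5 stood high in day 7 replicate 2, at 1.45, and Calcb in control replicate 2, at 1.46, both at the floor. Ly9 stood high in day 3 replicate 2, at 3.54, the array in which Gabrg3 was also the highest of day 3. Aldh1b1 stood low in day 3 replicate 3, at 4.12, Aldh4a1 in day 3 replicate 1, at 4.65, and Ggct in control replicate 4, at 2.60. The cause of these values was not tested.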

How the results depend on the processing

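Under the alternatives that used all arrays, 138 values of the 4 genes were counted as the same, and 0 tested differences changed sign. For untested differences, the same means a move smaller than the spread between arrays, and their direction was not part of that count. Without 1 array, 173 values moved less than the spread between arrays, 6 moved more, all of Spink4, and the tested Spink4 difference changed sign. Leaving out 1 array put its withdrawal minus control difference at 2.10 to 3.58, day 3 minus withdrawal at -3.53 to -2.04 and day 7 minus withdrawal at -3.50 to -2.01, set by withdrawal replicates 1 and 3. Its day 7 minus control difference ran from -0.06 without day 7 replicate 1 to 0.22. Untested differences near 0 also changed sign, with lowest values of -0.14 for Spink4 and -0.03 for Aldh1a7 (day 3 minus control) and -0.12 for Spink4 (day 7 minus day 3). For day 7 against control the adjusted p stayed between 0.171 and 0.996 for the 4 genes without 1 array. The dim filter left Spink4 out.

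Genes called numbered 921 (withdrawal against control), 483 (day 3 against withdrawal), 404 (day 7 against withdrawal), 28 (day 3 against control), 4 (day 7 against control) and 0 (day 7 against day 3). With 1 array left out they numbered 459 to 774, 209 to 389, 200 to 415, 6 to 27, 0 to 9 and 0 to 7. Replicate numbers did not pair the arrays (21 pairs, r from -0.14 to 0.06), and with a replicate block the counts were 544, 257, 221, 4, 0 and 0, and no call of the 4 genes changed. Fits of the groups compared alone gave 524, 161, 154, 9, 0 and 0. The dim filter gave 630 (day 7 against withdrawal), 76 (day 3, compared with controls) and 3 (day 7, compared with day 3). Trended and robust eBayes gave 91 for day 3 against control and 2 for day 7 against control. Median centring gave 53 for day 3 against control, moved the median of all genes for withdrawal minus control to -0.12, and changed the split of calls for that comparison to 341 higher and 853 lower, against 534 and 387. Further quantile normalization made it 421 higher and 462 lower. For day 7 against withdrawal, centring gave 391 higher and 134 lower, against 210 and 194. For day 3 against control it gave 18 higher and 35 lower, against 19 and 9. Of 22 calls of named list genes and neighbours, 10 held without any 1 array and 12 were lost in some. Of the 10, Gstt1 on day 7 against withdrawal was lost in the fit of those groups alone (0.07). The cause of these shifts was not tested. Levels at the floor, as for Spink4 outside withdrawal, limit what a fall can show.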

Other observations

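Other marker lists of the gland gave these values beside the 4 genes. Over all genes, 2.49% were called higher and 1.81% lower at withdrawal than in controls. In day 3 against withdrawal, 1.37% were called higher and 0.886% lower. Of 12 endothelial markers, 2 were lower at withdrawal than in controls and 3 higher on day 3 than at withdrawal, with medians of -0.37 and 0.37. Of 12 capsule and fibroblast markers, 1 was higher at withdrawal than in controls and 2 lower on day 3 than at withdrawal, with medians of 0.36 and -0.42. Of 7 T cell markers, 4 of them at the floor by mean, 2 were higher at withdrawal than in controls. On day 3, 0 were called lower than at withdrawal, with differences from -0.8 to -0.04 and a median of -0.33.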
